A study of Mus musculus with 4 samples.

Results

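The members described here, 10 genes of the mouse platelet dense granule, were followed through 4 RNA-seq libraries. They were chosen by name: Slc18a2, Slc35d3, Slc6a4 and Abcc4, which carry cargo across membranes, and Hps1, Hps4, Hps5, Hps6, Ap3b1 and Lyst, which build the organelle. All 10 were listed in both deposited tables, which hold 17995 genes between them. Each library was made from the pooled platelets of 7 male mice. The groups were HuR cKO mice, whose knockout of the RNA-binding protein HuR (gene Elavl1) was conditional and limited to platelets, at 3 months; their WT littermates at 3 months; Old wild-type mice at 24 months; and Young wild-type mice at 3 months. The Cre driver of the knockout and the strain were not stated in the labels. Because every group has only 1 library, no difference here was checked against replicates, and each interval is a 95% interval for counting error only.

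Dense granules are lysosome-related organelles that store serotonin, ATP, ADP, calcium and polyphosphate, and release them when a platelet is activated, which recruits further platelets. Cargo is loaded by transporters in the plasma membrane and in the granule membrane. The organelle itself is built from endosomes by sorting complexes: the adaptor AP-3, the complexes BLOC-1, BLOC-2 and BLOC-3, and the Rab GTPases they recruit. Loss of sorting genes in mice gives pale coats and prolonged bleeding, because melanosomes share the machinery, and in people it gives Hermansky-Pudlak or Chediak-Higashi syndrome.

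The libraries held 17702341 reads (labelled cKO), 17978384 (WT), 18472149 (Old) and 18145612 (Young). Elavl1 had 1481 reads in the library labelled cKO, against 876 in WT, a ratio of 1.66 (1.53 to 1.81). Against Young, with 621 reads, its ratio was 2.62 (2.38 to 2.88), and WT over Young was 1.54 (1.39 to 1.71), so that the young wild-type pools themselves differed in Elavl1. Gene-level reads do not show which exons were read. The deposited values thus do not bear out the genotype label, and every direction below is one for the library labelled cKO. All 12 platelet markers were detected in every library, although Gp1bb had only 1 to 14 reads. Ratios are reads over library sizes scaled by the trimmed mean of M-values (TMM). Rose and fell are used only of genes that reached 100 reads in 1 library of a pair and whose whole interval lay 2-fold or more away from 1. WT and Young, both wild-type at 3 months, give the only view of how far pools of the same kind lie apart. Between them 64 of 6373 genes with at least 100 reads (1.0%) passed that rule, and 0 of the 7 such members did. Hps5, Hps6 and Slc35d3 had fewer reads and could not pass there. Each library enters several of the comparisons, which are therefore not independent, and those across the tables rest on reads of the 14652 genes in both tables, which the authors scaled separately.

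The serotonin transporter gene dominated the set. Slc6a4 took 79.9% of the members' reads in the library labelled cKO (Wilson interval 79.2 to 80.5%), 77.2% in WT (76.6 to 77.8%), 84.4% in Old (84.0 to 84.8%) and 77.5% in Young (76.9 to 78.1%). On the scale of RPKM, reads divided by gene length and by the TMM-scaled library size, its level was 146 in the library labelled cKO, 175 in WT, 305 in Old and 167 in Young. The builders of the organelle sat far lower, with Hps1, Hps4, Hps5 and Hps6 between 0.232 and 2.09 RPKM in all 4 libraries. In both WT and Young the order of the leading members was Slc6a4, Abcc4, Slc18a2 and Ap3b1, and the counting intervals of these neighbours did not overlap. In the library labelled cKO Slc18a2 came after Ap3b1 and Abcc4, and in Old it came directly after Slc6a4 while Abcc4 came after Ap3b1 and Lyst. The intervals of Lyst and Abcc4 overlapped in Old. Those of Hps1 and Hps4, and those of Hps4 and Hps5, overlapped in the library labelled cKO and in WT.

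**Figure D1:**
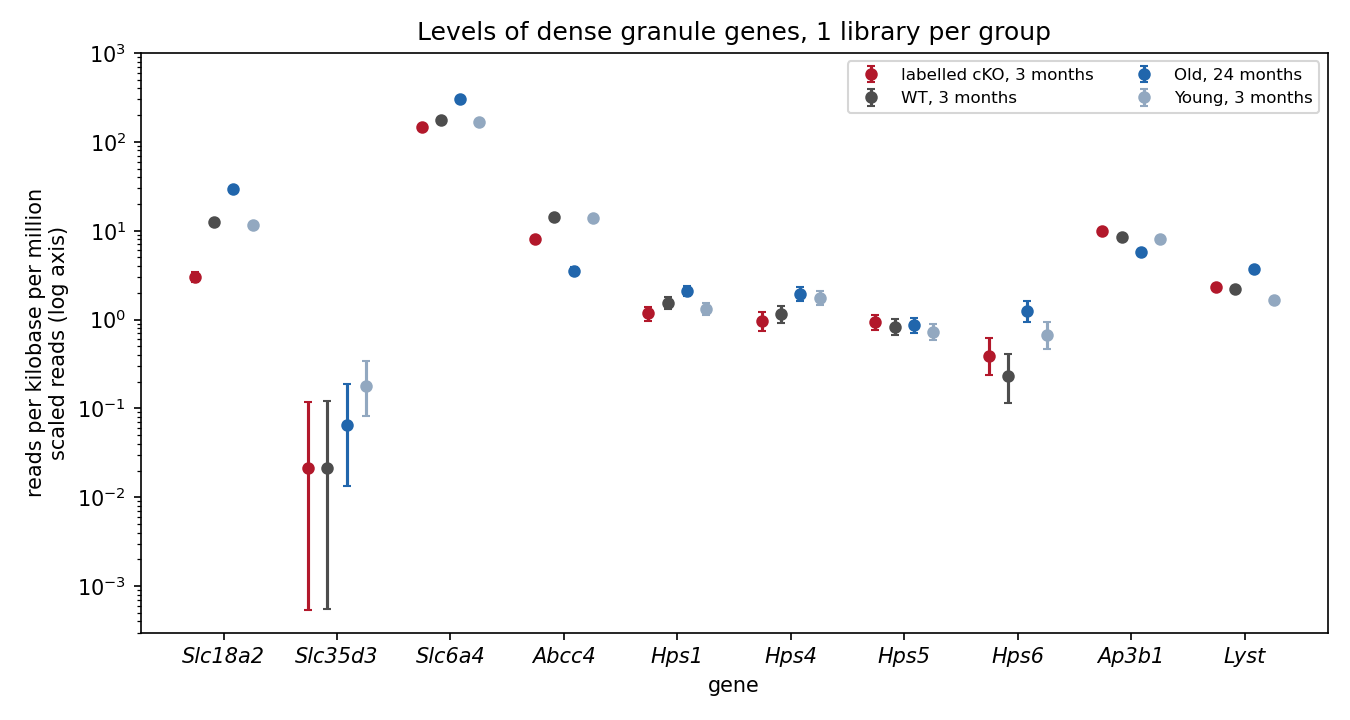
Levels of the 10 dense granule genes in RPKM (log axis), 1 point per library with its exact Poisson 95% interval. Slc18a2 was at 3.03 in the library labelled cKO, 12.4 in WT, 29.7 in Old and 11.5 in Young, and Slc35d3 sat at the bottom in each library.

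Slc18a2 encodes the vesicular monoamine transporter (VMAT), which pumps serotonin from the cytosol into the granule. It fell in the library labelled cKO and rose in Old, while the pair of young wild-type libraries lay close together. The gene (ENSMUSG00000025094, protein coding, mm10 chr19:59260878-59296012, plus strand) has 16 exons in its principal transcript. Because this gene differed most between the libraries, the promoter window of RefSeq (GRCm38.p6, chr19:59260628-59260927, plus strand, 300 bases around the start site) is shown, with the letters TTATCT of a GATA match in capitals:
Slc18a2: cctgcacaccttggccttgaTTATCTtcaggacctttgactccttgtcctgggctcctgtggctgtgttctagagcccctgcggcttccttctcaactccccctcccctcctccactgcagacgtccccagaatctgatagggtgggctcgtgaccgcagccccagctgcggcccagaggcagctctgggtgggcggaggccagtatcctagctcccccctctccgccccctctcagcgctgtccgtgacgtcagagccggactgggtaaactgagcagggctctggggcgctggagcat

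That window held 1 match, at position -230 from the start site, to AGATAA or its reverse complement TTATCT, a core read by GATA factors of megakaryocytes. It held 0 to the RUNX core TGTGGT, the ETS core CCGGAA or the E-box CACGTG, each searched on both strands. Matches to AGATAA stood in 11.2% of the 32851 promoter windows in the same RefSeq set. A match is a run of letters, other spellings of these cores were not searched, and binding was not measured.

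Slc18a2 had 206 reads in the library labelled cKO, against 832 in WT. The ratio was 0.243 (0.208 to 0.284), a 4.11-fold lower level, and only 14 of 6273 genes with at least 100 reads had a lower ratio. Against Young, with 845 reads, the ratio of the library labelled cKO was 0.267 (0.228 to 0.312). The library labelled cKO was thus the lowest of the 4 by a wide margin. Old, by contrast, reached 1983 reads beside the 845 of Young, and the ratio was 2.57 (2.37 to 2.79), with 245 of 6519 genes higher. Against WT the ratio of Old was 2.39 (2.20 to 2.59). Old was the highest library, and WT over Young had a ratio of 1.08 (0.977 to 1.19), an interval that includes 1. With library sizes set by the summed reads of the platelet markers, the ratio of Old over Young was 1.89 and that of Old over WT 2.04, and neither passed the rule. In the authors' deposited table the log2 fold change was -2.04 for the library labelled cKO over WT (adjusted p = 0.000792) and 1.36 for Old over Young (adjusted p = 0.0166), from a test of 2 libraries whose name was not stated.

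In a bulk library, fewer cells of a type and less RNA per cell cannot be told apart. Slc18a2 is also known from mast cells and basophils. Among their markers, Mcpt8, Fcer1a, Prss34, Cyp11a1, Mcpt4 and Tpsb2 had 0 reads in all 4 libraries, Cpa3 had 1 to 7 and Kit 5 to 19. Ms4a2 had 9 reads in the library labelled cKO, 3 in WT and 0 in Old and Young. Cd200r3 had 4 in Young, 2 in Old and 0 in the library labelled cKO and WT. Of the 11 markers of these cells, 4 were detected in each library, with 147 summed reads in the library labelled cKO, 179 in WT, 426 in Old and 67 in Young. Hdc, histidine decarboxylase, made up 126, 152, 411 and 56 of them in that order. Erythroid markers also differed. Their summed reads were 30969 in the library labelled cKO, 7550 in WT, 15559 in Old and 23845 in Young. Of the 10, 8 had at least 100 reads, and all 8 rose in the library labelled cKO against WT. There 2.52% of all genes rose. The part of these cell types in the difference of Slc18a2 was not tested.

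Slc6a4 encodes the plasma membrane serotonin transporter, through which platelets take up serotonin from plasma. It did not pass the rule in any comparison. The gene (ENSMUSG00000020838, chr11:76998603-77032340, plus strand) had 11882 reads in the library labelled cKO, 13940 in WT, 24282 in Old and 14567 in Young. The ratio was 0.837 (0.817 to 0.858) for the library labelled cKO over WT. It was 1.83 (1.79 to 1.86) for Old over Young and 1.75 (1.71 to 1.78) for Old over WT. Old was again the highest library and the library labelled cKO the lowest, over a narrower range than for Slc18a2. The 12 platelet markers summed to 912402 reads in the library labelled cKO, 1011310 in WT, 1179611 in Old and 951672 in Young, and with these sums as library sizes the ratio of Old over Young for Slc6a4 was 1.34.

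Slc35d3 belongs to the nucleotide-sugar transporter family, and its loss in the ashen-Roswell mouse leaves platelets short of dense granules. It was close to the limit of detection. The gene (ENSMUSG00000050473, chr10:19847916-19851459, minus strand) had 1 read in the library labelled cKO, 1 in WT, 3 in Old and 9 in Young. No fold is given for the library labelled cKO over WT, where both counts lie under a floor of 3 reads. The ratio of Old over Young was 0.365 (0.0636 to 1.46), an interval that includes 1. Young held the most reads: the library labelled cKO over Young had a ratio of 0.122 (0.00278 to 0.879) and WT over Young 0.121 (0.00277 to 0.876), each resting on 1 read against 9.

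Abcc4 encodes an ATP-binding cassette transporter (also called MRP) of the platelet plasma membrane and dense granule membrane, known for carrying cyclic nucleotides and for the storage of adenine nucleotides. It fell in Old. The gene (ENSMUSG00000032849, chr14:118482692-118706219, minus strand) has 31 exons in its principal transcript. Its promoter window (GRCm38.p6, chr14:118706170-118706469, minus strand, written in the direction of the gene) is shown beside that of Slc18a2 because both genes differed widely between these libraries, in opposite directions in Old. Capitals mark the E-box CACGTG and the ETS core CCGGAA:
Abcc4: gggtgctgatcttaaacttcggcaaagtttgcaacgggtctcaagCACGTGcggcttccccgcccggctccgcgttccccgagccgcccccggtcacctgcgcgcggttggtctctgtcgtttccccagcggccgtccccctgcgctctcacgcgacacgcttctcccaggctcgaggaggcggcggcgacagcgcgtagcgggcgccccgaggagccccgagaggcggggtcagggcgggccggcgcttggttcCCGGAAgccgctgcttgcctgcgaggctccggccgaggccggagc

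The E-box match began at position -205 and the ETS match at position 6, and the window held 0 matches to the GATA or RUNX letters searched. The E-box stood in 7.15% of all windows and the ETS core in 14.9%, and G or C made up 72.7% of the Abcc4 window, 64% of the Slc18a2 window and a median of 52.7% over 27025 genes. Of the 10 members, Abcc4, Ap3b1, Hps1 and Hps5 held the ETS core. Slc6a4, Slc35d3, Lyst and Hps4 held 0 matches to the 4 spellings searched.

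Abcc4 had 393 reads in Old, against 1709 in Young. The ratio was 0.252 (0.225 to 0.281), a 3.97-fold lower level, with 61 of 6519 genes lower still. Against WT, with 1587 reads, the ratio of Old was 0.248 (0.222 to 0.277). The library labelled cKO had 929 reads and a ratio over WT of 0.575 (0.530 to 0.624), which lay below 1 without passing the rule, and its ratio over Young was 0.596 (0.550 to 0.646). WT over Young had a ratio of 1.01 (0.947 to 1.09). Abcc4 was thus lowest in Old, intermediate in the library labelled cKO and highest in the pair of young wild-type libraries. Summed B cell markers were also lowest in Old. They had 4725 reads in the library labelled cKO, 4918 in WT, 1112 in Old and 4185 in Young. All 6 were detected in each library, and 4 of 6 fell in Old against Young, where 4.3% of all genes fell. The part of B cells in the difference of Abcc4 was not tested. In the authors' deposited table the log2 fold change of Abcc4 was -1.99 for Old over Young and -0.80 for the library labelled cKO over WT.

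Ratios between members within a library do not depend on how libraries are scaled. For each 100 reads of Slc6a4 there were 1.73 reads of Slc18a2 in the library labelled cKO, 5.97 in WT, 8.17 in Old and 5.80 in Young. The library labelled cKO stood below WT by a ratio of 0.290 (exact conditional interval 0.248 to 0.339), and Old stood above Young by 1.41 (1.29 to 1.53). The vesicular and the plasma membrane serotonin transporter therefore differed by unequal amounts in both comparisons. For Abcc4 there were 7.82 reads per 100 reads of Slc6a4 in the library labelled cKO, 11.4 in WT, 1.62 in Old and 11.7 in Young. Old over Young had a ratio of 0.138 (0.123 to 0.154). Slc18a2 reads per 100 Abcc4 reads numbered 22.2 in the library labelled cKO, 52.4 in WT, 505 in Old and 49.4 in Young, so that Old stood 10.2-fold above Young (8.89 to 11.7).

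**Figure D2:**
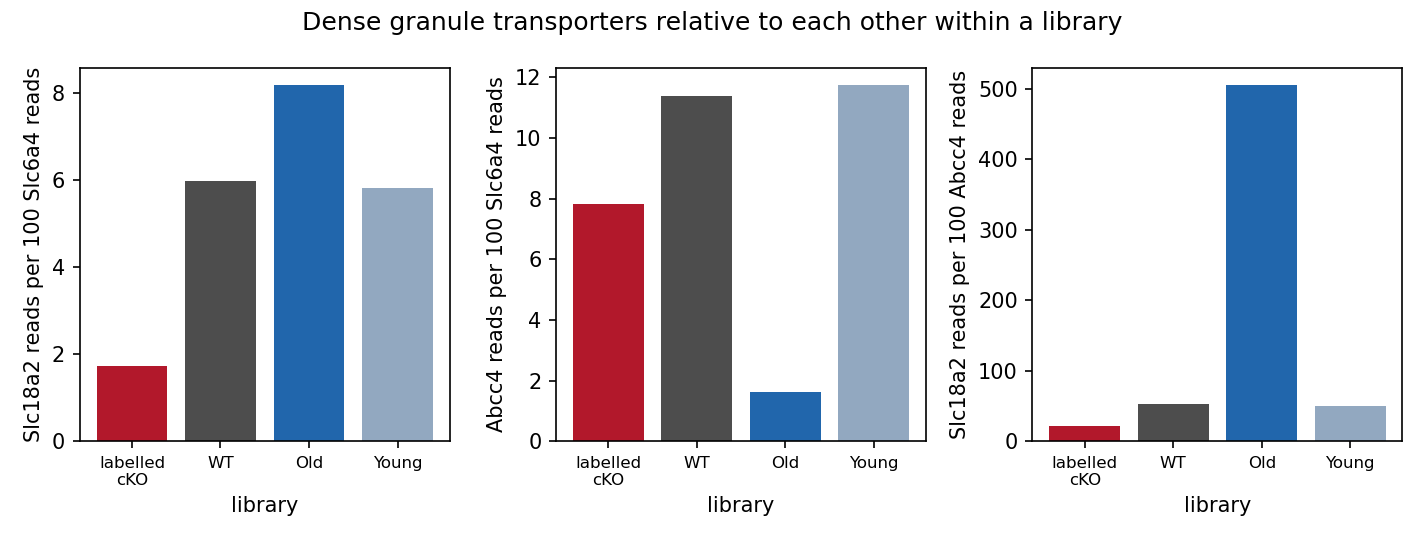
Reads of 1 transporter gene per 100 reads of another, within each of the 4 libraries (linear axes from 0, 1 bar per library, no replicates). Slc18a2 relative to Slc6a4 was 1.73 in the library labelled cKO and 5.97 in WT, and Slc18a2 relative to Abcc4 was 505 in Old and 49.4 in Young.

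Hps1 and Hps4 form BLOC-3, the exchange factor that activates Rab32 and Rab38 on the maturing organelle. Neither passed the rule in any comparison. Hps1 (ENSMUSG00000025188, chr19:42755105-42779978, minus strand) had 123 reads in the library labelled cKO, 160 in WT, 215 in Old and 149 in Young. Its ratio was 0.755 (0.592 to 0.961) for the library labelled cKO over WT and 1.58 (1.28 to 1.96) for Old over Young. Old held the most reads and the library labelled cKO the fewest. Gm16244, a noncoding gene on the other strand, overlaps exons of Hps1 and had 21 to 38 reads; the use of strand in counting is not given, so reads of the pair cannot be fully told apart. Hps4 (ENSMUSG00000042328, chr5:112343083-112378414, plus strand) had 68 reads in the library labelled cKO, 80 in WT, 135 in Old and 133 in Young. For Hps4 the tables stood apart, with WT over Young at 0.657 (0.492 to 0.874), while the ratio within each table had an interval that included 1: 0.835 (0.595 to 1.17) for the library labelled cKO over WT and 1.11 (0.868 to 1.42) for Old over Young. The reads of Hps1 per read of Hps4 were likewise 1.79 times higher in WT than in Young (1.23 to 2.59).

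Hps5 and Hps6 are subunits of BLOC-2, a tethering complex that directs cargo carriers to the organelle. Hps5 (ENSMUSG00000014418, chr7:46760466-46796064, minus strand) was the steadiest member, with 108 reads in the library labelled cKO, 94 in WT, 98 in Old and 91 in Young, and all 5 ratios between libraries had intervals that included 1. Hps6 (ENSMUSG00000074811, chr19:46003478-46006173, plus strand), a gene of a single exon, had 19 reads in the library labelled cKO, 11 in WT, 59 in Old and 35 in Young. Its ratio was 1.70 (0.767 to 3.95) for the library labelled cKO over WT and 1.85 (1.19 to 2.89) for Old over Young. Old over WT had a ratio of 5.37 (2.80 to 11.3), but WT over Young was 0.343 (0.157 to 0.692), and the largest count stayed under 100 reads. Hps3, the remaining subunit of BLOC-2, had 129 reads in the library labelled cKO, 175 in WT, 70 in Old and 143 in Young. Its ratio of 0.536 (0.397 to 0.718) for Old over Young lay below 1, opposite in direction to Hps6, without passing the rule.

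Ap3b1 encodes the beta subunit of AP-3, the adaptor that sorts membrane proteins from endosomes to the granule, and is the gene of the pearl mouse. It did not pass the rule. The gene (ENSMUSG00000021686, chr13:94358960-94566317, plus strand) had 813 reads in the library labelled cKO, 679 in WT, 456 in Old and 710 in Young. The ratio was 1.18 (1.06 to 1.30) for the library labelled cKO over WT and 0.703 (0.624 to 0.792) for Old over Young. Old held the fewest reads and the library labelled cKO the most, whereas Slc18a2 had the most in Old and the fewest in the library labelled cKO. Of the other measured AP-3 subunits, Ap3d1 had ratios of 1.04 and 1.45 and Ap3s1 0.649 and 1.27 in these comparisons.

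Lyst encodes a very large protein of the BEACH family that controls the size of lysosome-related organelles and is mutated in the beige mouse. It rose in Old against Young, the third member to pass in that comparison. The gene (ENSMUSG00000019726, chr13:13590397-13778803, plus strand) had 1140 reads in Old and 551 in Young, giving a ratio of 2.27 (2.04 to 2.51). Against WT, with 673 reads, the ratio of Old was 1.70 (1.54 to 1.87) and did not pass. The library labelled cKO had 726 reads and a ratio of 1.06 (0.953 to 1.18) over WT. Old was the highest library, and the young ones spanned a narrower range, with WT over Young at 1.33. With library size set by total reads, Old over Young was 2.03, and by platelet markers 1.67, and neither passed. In the authors' deposited table the log2 fold change of Lyst for Old over Young was 1.18. Lyst is also used by leukocytes, and summed neutrophil markers were likewise highest in Old. Their reads were 625 in the library labelled cKO, 1163 in WT, 14818 in Old and 462 in Young. Among the young libraries, Lyst had the most reads in the library labelled cKO and the neutrophil markers in WT. Of the 9 neutrophil markers with at least 100 reads, 9 rose in Old against Young, where 4.26% of all genes rose. Of the 13 neutrophil markers 6 were detected in the library labelled cKO, 7 in WT, 12 in Old and 8 in Young. Ly6g, Camp, Ltf and Mpo had 0 reads in the library labelled cKO, WT and Young, and Elane had 0 in all 4. Summed monocyte and macrophage markers had 41107, 61186, 47278 and 63743 reads in the same order of libraries. Lyz2 made up at least 40825 of them in each library. Of the 4 with at least 100 reads, Ccr2, Cd14 and Csf1r rose in Old against Young, where 4.26% of all genes rose. Lyz2, with 46508 reads in Old and 63478 in Young, did not pass. T and NK cell markers had 379, 456, 432 and 762 reads in that order of libraries. Their part in the difference of Lyst was not tested.

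Over the set, 1 of the 7 members with at least 100 reads fell and 0 rose in the library labelled cKO against WT, where 1.71% of 6273 genes fell and 2.52% rose. In Old against Young, 2 of 7 rose and 1 fell, where 4.26% of 6519 genes rose and 4.3% fell. Hps6 and Slc35d3 stayed under 100 reads in both comparisons, Hps4 in the first and Hps5 in the second. The median log2 ratio of the 7 was -0.26 in the library labelled cKO over WT, beside -0.01 over all genes with at least 100 reads. In Old over Young it was 0.66, beside -0.06. The 11 platelet markers with at least 100 reads had medians of -0.18 and 0.66 in these comparisons, so the shift in Old was not particular to the members. Against the other young wild-type library, 1 of 8 members fell and 0 rose in the library labelled cKO (0.793% and 2.07% of 6428 genes), and in Old 1 of 7 rose (4.54% of 6328) and 1 fell (4.22%). At a bound of 1.5-fold, Abcc4 joined Slc18a2 as lower in the library labelled cKO against WT, where 6.28% of genes were lower, and against Young, where 3.7% were. At that bound Lyst, Slc18a2 and Slc6a4 were higher in Old against Young, beside 10.4% of genes, and against WT, beside 12.1%.

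**Figure D3:**
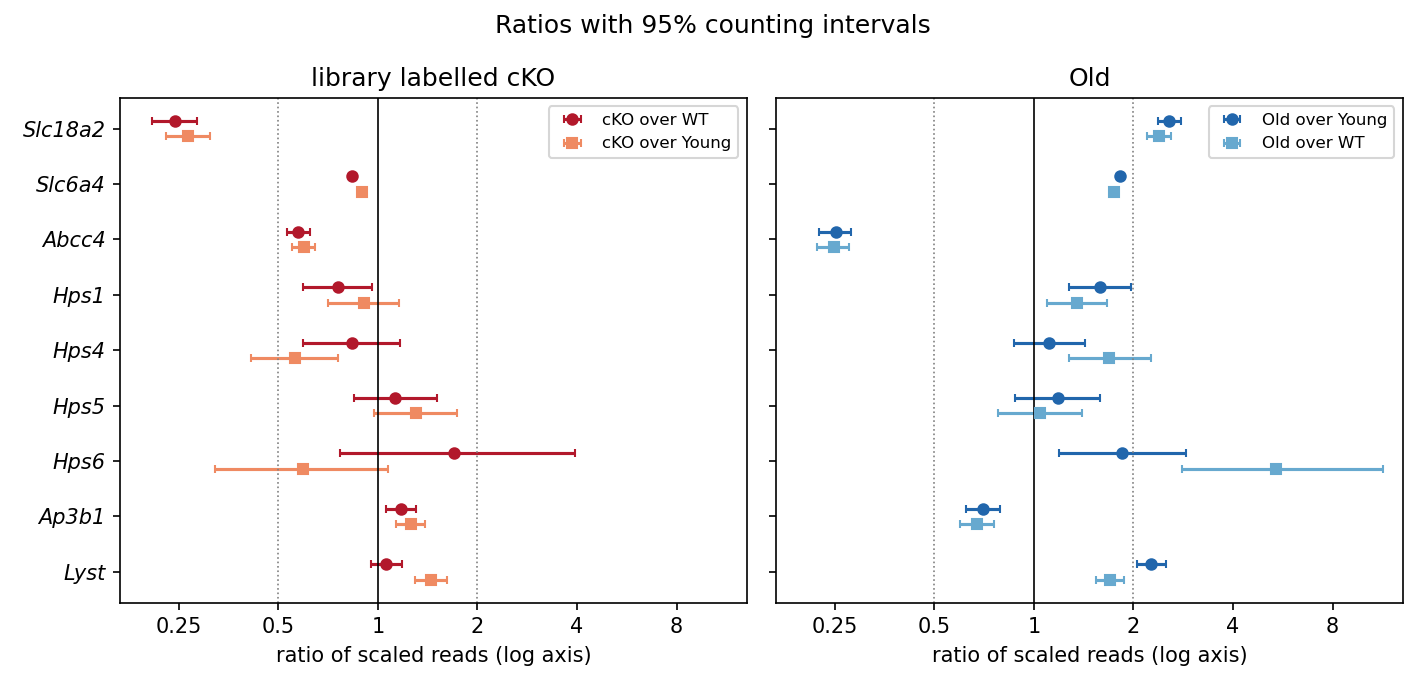
Ratios of scaled reads with 95% counting intervals (log axis) for the 9 members other than Slc35d3: left, the library labelled cKO over WT (circles) and over Young (squares); right, Old over Young (circles) and over WT (squares); dotted lines mark 2-fold. Slc18a2 lay at 0.243 and 0.267 on the left and at 2.57 and 2.39 on the right, and Abcc4 at 0.252 and 0.248 on the right.

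Of 49 other genes of the pathway, 42 were listed in the table of the library labelled cKO and WT and 23 had at least 100 reads; 0 rose and 1 fell, where 2.52% of all genes rose and 1.71% fell. The 1 was Rab27b, a GTPase needed for normal dense granule number and secretion in mice, with 5018 reads in the library labelled cKO, against 10394 in WT, and a ratio of 0.474 (0.458 to 0.491). Against Young its ratio was 0.635 (0.614 to 0.658) and did not pass. In Old against Young, 44 were listed, 26 had at least 100 reads, 2 rose and 0 fell, where 4.26% of all genes rose and 4.3% fell. Nbea (neurobeachin, a membrane trafficking protein with a BEACH domain) had 1034 reads in Old and 376 in Young, giving 3.01 (2.67 to 3.40), and 2.27 (2.03 to 2.54) against WT. Wdfy3 (an adaptor of selective autophagy) had 423 reads in Old and 177 in Young, giving 2.62 (2.19 to 3.14), and 2.32 (1.94 to 2.77) against WT, where it did not pass. The other 4 genes on the list of BEACH proteins did not pass, and Wdfy4 had a ratio of 0.588 and Lrba 0.592. The median log2 ratio of the 23 was -0.12 in the library labelled cKO over WT and that of the 26 was 0.23 in Old over Young, beside -0.01 and -0.06 over all genes.

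**Figure D4:**
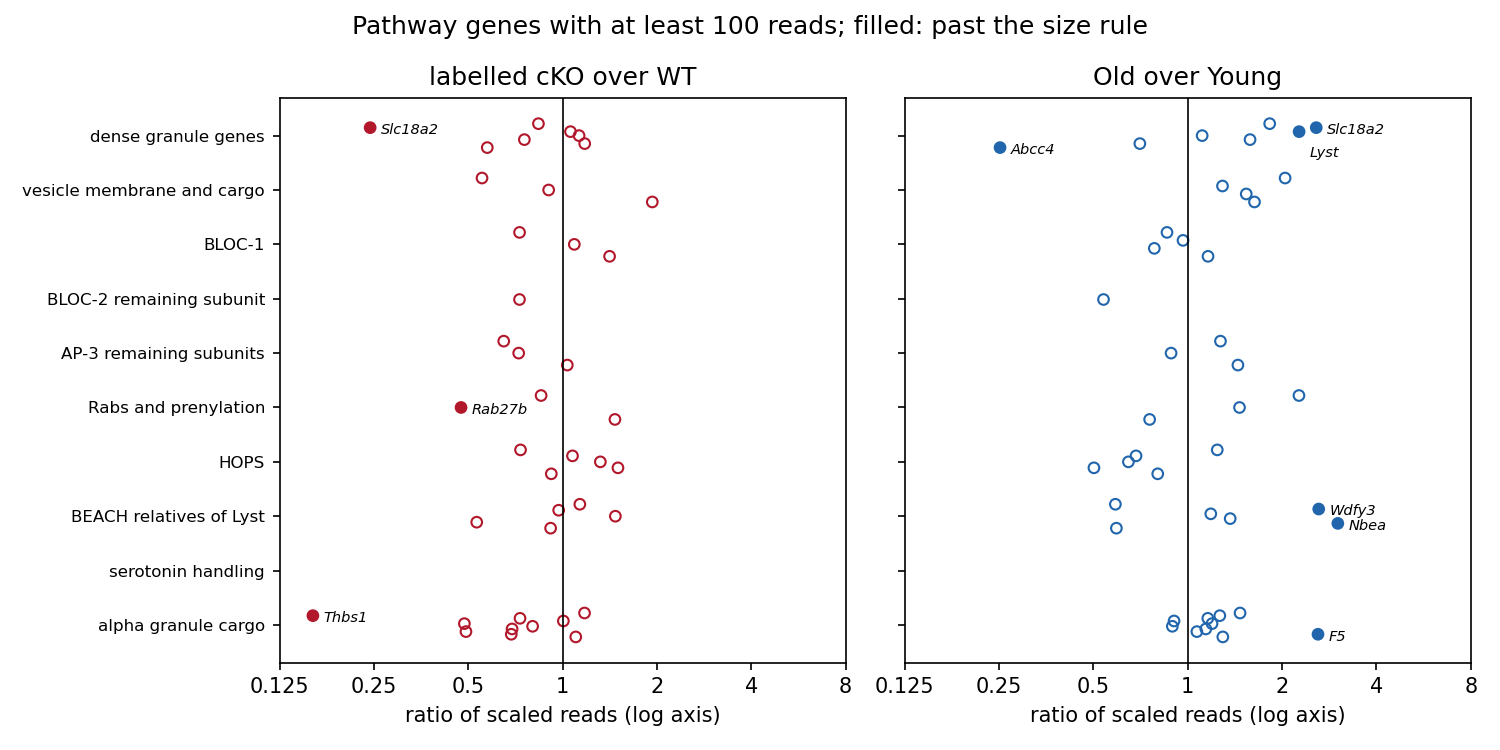
Ratios of scaled reads (log axis) for members, other pathway genes and alpha granule cargo with at least 100 reads, 1 point per gene, by list; filled points passed the 2-fold rule. Slc18a2, Rab27b and Thbs1 were filled on the lower side for the library labelled cKO over WT. In the panel of Old over Young, filled points were Lyst, Slc18a2, Nbea, Wdfy3 and F5 on the higher side and Abcc4 on the lower.

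Among the organelle's membrane proteins, Lamp1 had ratios of 0.903 in the library labelled cKO over WT and 1.54 in Old over Young, and Lamp2 had 0.553 and 1.29. Cd63, named after its values were seen, the tetraspanin used to mark dense granules, had 362 reads in the library labelled cKO, against 184 in WT (1.93, 1.61 to 2.32), and 325 in Old, against 218 in Young (1.63, 1.37 to 1.95), and passed in neither. BLOC-1 had 0 of 3 and 0 of 4 measured subunits past the rule in those comparisons; its most abundant, Snapin and Bloc1s6, had ratios of 0.729 and 1.41 in the library labelled cKO over WT, and 0.858 and 0.782 in Old over Young. HOPS, the tether for late endosomal fusion, had 0 of 5 past the rule in both. Vps41 had ratios of 0.734 and 1.24, and Vps33a, the gene of the buff mouse, 1.32 and 0.647. In the library labelled cKO over WT, 3 of the 5 lay above 1, with a median log2 ratio of 0.10. In Old over Young, 1 of the 5 did, with a median of -0.55. Rab32 had 63 and 75 reads in the library labelled cKO and WT, and 155 and 75 in Old and Young, a ratio of 2.26 (1.71 to 3.02) that did not pass. Rab38 was listed only in the table of Old and Young, with 7 and 9 reads.

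Genes of serotonin synthesis, breakdown and sensing had few reads. Of 8 such genes, 4 were listed in the table of the library labelled cKO and WT, the enzymes Ddc and Maoa and the receptors Htr2a and Htr2b, and 6 in the other table, where Maob and Tph2 joined them, all with under 100 reads. Tph1, the enzyme of serotonin synthesis outside the brain, was listed in neither. Ddc, which makes serotonin from its precursor, led with 55 in the library labelled cKO, 68 in WT, 86 in Old and 74 in Young. Maoa, which degrades serotonin, had 19, 24, 11 and 12 in the same order. Slc17a9, the vesicular nucleotide transporter that loads ATP, was named after its values were seen: it had 4 reads in the library labelled cKO, 11 in WT, 3 in Old and 49 in Young. Here Young stood apart from the other 3 libraries, with Old over Young at 0.0670 (0.0134 to 0.208) and WT over Young at 0.245 (0.115 to 0.478).

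Alpha granule cargo was set beside the dense granule genes. In the library labelled cKO against WT, 1 of 10 cargo genes fell, Thbs1 (thrombospondin, ratio 0.160, 0.157 to 0.163), and 0 rose, with a median log2 ratio of -0.49, where 1.71% of all genes fell and their median was -0.01. In Old against Young 1 rose, F5 (coagulation factor V, ratio 2.60), and 0 fell, with a median of 0.23, where 4.26% of all genes rose and their median was -0.06. Vwf (von Willebrand factor) had ratios of 1.17 and 1.47, and Ppbp (the precursor of platelet basic chemokines) 0.802 and 0.893.

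HuR is known for binding AU-rich elements in the 3′ untranslated region (UTR) of messenger RNAs, so the letters ATTTA and the longer TATTTAT, which contains ATTTA, were counted in the 3′ UTR of the principal transcript of each gene (GENCODE M21, mm10), on the transcript's strand only. Slc18a2 held 4 copies of ATTTA in 2096 bases, Lyst 4 in 1624, Abcc4 3 in 1641, Slc35d3 4 in 924, Hps5 2 in 924 and Ap3b1 1 in 559. Slc6a4, Hps1, Hps4 and Hps6 held 0. The density per kilobase was 4.33 in Slc35d3, 2.46 in Lyst, 2.16 in Hps5, 1.91 in Slc18a2, 1.83 in Abcc4 and 1.79 in Ap3b1, beside a median of 1.30 over 11966 genes listed in both tables. TATTTAT occurred in 28.5% of those genes and in Slc18a2 (1 copy), Lyst (2) and Slc35d3 (3). The 28.5% is not matched for length: the median UTR of those genes was 1061 bases, shorter than that of Slc18a2 or Lyst. The copies in the members that rose or fell are shown, with TATTTAT in capitals, from chr19:59294416-59294442 for Slc18a2 and chr13:13777485-13777511 and chr13:13778642-13778668 for Lyst, all on the plus strand:
Slc18a2, 510 bases after the stop codon: aataccaatgTATTTATgagttaaaag
Lyst, 316 bases after the stop codon: attggctaatTATTTATctaaaatact
Lyst, 1473 bases after the stop codon: tgggggggatTATTTATtgagcatgag

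No binding of HuR was measured in these libraries, and the part of these letters in any difference was not tested.

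Patterns across the 4 libraries were compared between genes by the root mean square difference of centred log2 scaled reads, among 6324 protein-coding genes with at least 100 reads in their highest library. The gene nearest to Slc18a2 was Slc6a3, the dopamine transporter, at 0.15, with 22 reads in the library labelled cKO, 68 in WT, 171 in Old and 77 in Young. Serpinb2, a plasminogen activator inhibitor, came next at 0.18, with 117, 455, 820 and 440 reads in that order, and Ern1, a sensor of endoplasmic reticulum stress, at 0.26. All 3 were, like Slc18a2, lowest in the library labelled cKO and highest in Old, which follows from picking them by nearness over these libraries. For Slc6a4 the nearest were Capn2 (0.03), Cc2d2b (0.04) and Ctif (0.04), and for Abcc4 they were Tex10 (0.05), Pias2 (0.15) and Eif3m (0.16). Eif3m, a subunit of a translation initiation factor, had 303 reads in the library labelled cKO, 547 in WT, 130 in Old and 447 in Young. Slc35d3 had too few reads to be compared. With 4 libraries as the only points, nearness describes these libraries alone.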

How the data were processed

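Platelet RNA was sequenced in 4 libraries, 1 per group. Of the 2 tables the authors deposited, the first (16467 genes) covers the knockout and its littermates and the second (16180 genes) covers age. Each holds, per the file headers, the authors' signal for every library, log2 fold changes and p-values. The name of the test behind those p-values was not stated. They compare 1 library with 1 and cannot measure variation between pools, so they are not given here. The submitters' processing notes name build mm10 and, with no role given, DESeq2 1.20.0, featureCounts 1.5.0-p3, HISAT2 2.0.5 and CASAVA. The deposited signal behaves as read counts multiplied by 1 factor per library: dividing by 1 step per library gave whole reads within 0.02 read for at least 99.845% of values. The design had assumed reads, and the recovered reads were used. A further 4 per-sample columns match no sample's name and were not used.

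Libraries were scaled by TMM (edgeR 4.0.16, R 4.3.3), and ratios carry Clopper-Pearson 95% intervals (scipy 1.17.1); log2 ratios use a pseudocount of 0.5 read. The procedure was tested on simulated data. No count test was run, since 1 library per group leaves no replicates. RPKM uses the gene lengths of the deposited tables. A marker counted as detected with at least 1 read. No ratio is given where both counts lay at or under a floor of 3 reads. Intervals and floors cover counting error only, because PCR copies were not marked and reads may repeat a molecule. The members, the gene and marker lists and the naming rule (all members; list genes past the rule; the 2 most abundant per list; the 3 nearest patterns) were chosen with earlier results of these data known, and further genes were named after their values were seen. Alternatives were DESeq2 1.42.0 size factors, total reads, platelet marker reads, TMM from genes with a mean of at least 10 reads, other minimum counts and other bounds.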

Additional observations from a re-analysis of the deposited data

How the results depend on the processing

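No paired analysis was possible because each group has 1 library, and no library could be left out for the same reason. Scaling by platelet marker reads moved the median log2 ratio of all genes by 0.17 in the library labelled cKO over WT, -0.44 in Old over Young, -0.23 in Old over WT and -0.22 in WT over Young, and total reads moved it by -0.16 in Old over Young and -0.11 in WT over Young. Members that rose in Old over Young then numbered 0 and 1, against 2 as reported, and with platelet marker reads 0 rose in Old over WT, against 1. A bound of 4-fold left 0 members lower and 0 higher in all comparisons. A bound of 1.5-fold gave 2 lower in the library labelled cKO, over WT and over Young, and 3 higher in Old, over Young and over WT. In Old over WT, a minimum of 20 reads or none gave 2 higher. Slc18a2 per platelet marker read, in place of per Slc6a4 read, had ratios of 1.89 in Old over Young, 2.04 in Old over WT, 0.254 in the library labelled cKO over Young and 0.927 in WT over Young. Of 48 single ratios, 40 stayed on their side of 1 under every scaling and 8 crossed it, none of which had passed the rule: 5 in WT over Young, those of Hps4 and Hps5 in Old over Young and that of Hps5 in Old over WT. Slc35d3 and Hps6 are limited by depth.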
